A study of Petromyzon marinus with 12 samples.

Results

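Gene expression was compared between whole sea lamprey (Petromyzon marinus) embryos labelled KMT1 knockout and wildtype embryos at day 3 of development. The comparison rests on 4 of the 12 libraries of the study, 2 per group, and each library was made from a pool of about 100 embryos. The other 8 libraries are wildtype and KMT1 knockout embryos at day 2 and KMT5A knockout embryos at both days, with 2 pools each. Per the labels, all embryos were raised at 18 °C, and the knockouts were made by injecting Cas9 protein with guide RNAs and a fluorescent dextran, after which fluorescent embryos were kept. The injected embryos were themselves sequenced, so a pool can mix cells with different edits, and whether wildtype embryos received an injection is not given in the labels. The labels call the 2 pools of a group biological replicates and do not say whether they came from separate crosses, so p-values measure the spread between pools.

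KMT1 is a family name that covers the SUV39H enzymes, which methylate lysine 9 of histone H3. HP1 proteins bind this mark and help to form heterochromatin, the condensed and mostly silent part of the genome. The sea lamprey removes a set of germline DNA, including whole chromosomes, from its future somatic cells during early embryogenesis, and the study addressed histone methyltransferases in embryos passing through that programme.

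Estimated counts per library summed to 81131801 and 67665560 in the wildtype and to 76021150 and 66934325 in the KMT1 knockout pools at day 3, and 12648 to 13448 genes were above 0. A ribosomal RNA gene and 1 further gene model together took 6.99% of the counts of knockout replicate 2, against 0.416 to 0.505% in the other 3 libraries, so libraries were scaled with the trimmed mean of M-values (TMM). Normalised counts below, in CPM, are relative to the scaled library size. The 2 knockout pools differed from each other more than the 2 wildtype pools did: the median absolute log2 ratio between replicates was 0.149 and 0.0927, over 9113 genes.

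The annotation names 1 gene SUV39H2, taken here by its name alone as the gene behind the KMT1 label, since the labels do not give the guide target. It lies on chromosome 14 from 8620044 to 8633357, on the plus strand, in the coordinates of the deposited annotation. SUV39H2 stood at 51.6 and 56.1 CPM in the wildtype and at 32.7 and 36.8 CPM in the KMT1 knockout pools, so both knockout pools were below both wildtype pools. It fell, with a log2 fold change of -0.63 (SE 0.0875, adjusted p = 0.00624), and the call held with each of the 4 libraries left out in turn. In the KMT5A knockout of the same day it stood at 50.8 and 44.5 CPM. At day 2 the KMT1 knockout pools had been at 145 and 151 CPM and the wildtype pools at 119.7 and 119 CPM. The day 3 effect on SUV39H2 differed from the day 2 effect (adjusted p = 0.00436). In bulk RNA, less transcript per cell and fewer cells with the transcript cannot be told apart, here and in all results that follow.

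Of 15615 genes tested, 977 (6.26%) passed an adjusted p of 0.05 in edgeR's quasi-likelihood F test over all 12 libraries, and 729 (4.67%) were higher and 248 (1.59%) lower in the knockout. Genes listed at 0 in a library may be failed estimates in this table, so functions were described among the 11806 genes above 0 in all 4 libraries. There 881 genes (7.46%) were called, 666 higher (5.64%) and 215 lower (1.82%). Most changes were small: the median size of a called change was 0.565 on the log2 scale, and 111 genes rose and 25 fell by at least 1. The 2 groups overlapped for none of the 881 genes, and they were without overlap for 53.9% of all 11806 genes. A fit in limma voom with a weight per group, which gave the day 3 KMT1 knockout libraries a weight of 0.624 and the day 3 wildtype libraries 1.39, called 629 (71.4%) of the 881. Without wildtype replicate 1 the count over the 11806 genes was 400, and without wildtype replicate 2 it was 362. A fit on the 4 compared libraries alone called 1 gene in all, where 2431 genes had an unadjusted p under 0.05, and a fit on the 6 day 3 libraries called 19, with 2031. The calls thus rest on an estimate of spread shared with the day 2 libraries. Replicates differed less at day 2, with a median absolute log2 ratio of 0.0754 to 0.0893 in its groups.

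**Figure D1:**
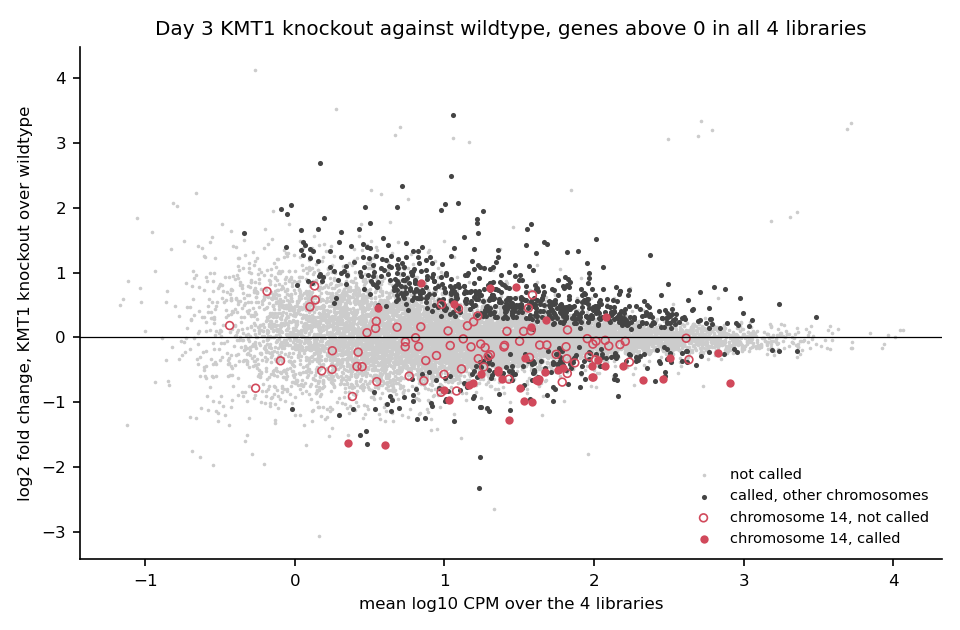
Mean level over the 4 day 3 libraries (log10 CPM, x axis) against the log2 fold change of the KMT1 knockout over wildtype (y axis) for the 11806 genes above 0 in all 4 libraries. Dark points are called genes of other chromosomes, red points are genes of chromosome 14 (filled where called); more called genes lie above 0 (666) than below (215), and the called genes of chromosome 14 lie mostly below 0 (32 of 40).

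Among named genes above 0 in all 4 libraries whose call held with each library left out in turn, PRXL2B had the largest rise. It is an enzyme that makes prostaglandin F compounds. It stood at 2.15 and 2.55 CPM in wildtype and 13.5 and 10.2 CPM in the knockout pools (log2 fold change 2.34, SE 0.167, adjusted p = 0.000469). The creatine transporter SLC6A8, in the copy on chromosome 42, stood at 4.94 and 4.98 CPM and at 20.4 and 20.8 CPM (2.05, SE 0.144, adjusted p = 0.00045). This is a scarce copy. A far more abundant one on chromosome 14 fell, with a mean of 362 CPM over the wildtype pools against 231 CPM over the KMT1 pools (-0.65, SE 0.059, adjusted p = 0.00119). KLHL10, a BTB-kelch adaptor of ubiquitin ligases, stood at 9.15 and 9.39 CPM and at 37.5 and 34.4 CPM (1.95, SE 0.145, adjusted p = 0.00048). In PRXL2B, KLHL10 and the chromosome 42 copy of SLC6A8 both knockout pools were far above both wildtype pools. They rose in the KMT5A knockout of day 3 as well, against the same wildtype pools. There the log2 fold change was 2.66 for PRXL2B, 1.92 for that copy of SLC6A8 and 2.32 for KLHL10. The calls of CD109, a membrane protein that binds TGF-beta, and of PLCD1, a phospholipase C, also held without each library. CD109 stood at 1.83 and 1.14 CPM and 6.04 and 5.89 CPM (2.00, SE 0.235, adjusted p = 0.00319), and PLCD1 at 0.543 and 0.405 CPM and 1.423 and 2.51 CPM (2.05, SE 0.301, adjusted p = 0.00825).

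The morphogen SHH stood at 9.33 and 8.3 CPM in wildtype and 33 and 29.2 CPM in the knockout pools (1.82, SE 0.278, adjusted p = 0.00978). Its call was lost without wildtype replicate 2 (adjusted p = 0.0693). MAP3K20, a kinase of the ribosome stress response, stood at 5.98 and 6 CPM and 26.2 and 24.4 CPM (2.08, SE 0.294, adjusted p = 0.0106), and its call was lost without wildtype replicate 1 (adjusted p = 0.0637) and replicate 2 (0.0696). A gene model named after a TGF-beta family domain, without a closer name, stood at 5.85 and 3.93 CPM and 19.8 and 18.4 CPM (1.97, SE 0.259, adjusted p = 0.0218), and was not called without wildtype replicate 2 (adjusted p = 0.0694) or knockout replicate 1 (0.0748). TNNC1, a troponin of slow muscle and heart, stood at 2.68 and 2.19 CPM and 11.9 and 7.59 CPM (2.00, SE 0.309, adjusted p = 0.0342). The alanine aminotransferase GPT2 stood at 0.353 and 0.633 CPM and 2.56 and 1.09 CPM (1.90, SE 0.411, adjusted p = 0.037). The calls of both were lost without wildtype replicate 1 (adjusted p = 0.131 for TNNC1 and 0.178 for GPT2), without wildtype replicate 2 (0.17 and 0.0692) and without knockout replicate 1 (0.0721 and 0.0832).

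For the 2 largest fold changes, 1 knockout pool lay far above the other. KIF20A, a kinesin of cytokinesis, stood at 0.57 and 0.714 CPM in wildtype and at 6.46 and 1.76 CPM in the knockout pools (2.69, SE 0.563, adjusted p = 0.0412). The histone chaperone NASP stood at 4.96 and 5.69 CPM and at 47.9 and 11.4 CPM (2.48, SE 0.57, adjusted p = 0.0458). Without knockout replicate 1 the log2 fold changes were 1.46 for KIF20A and 1.09 for NASP, and both were still called (adjusted p = 0.00417 and 0.0323). Both lost the call without wildtype replicate 1 (adjusted p = 0.198 and 0.204) or replicate 2 (0.163 and 0.18), and neither was called by voom (0.111 and 0.119).

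**Figure D2:**
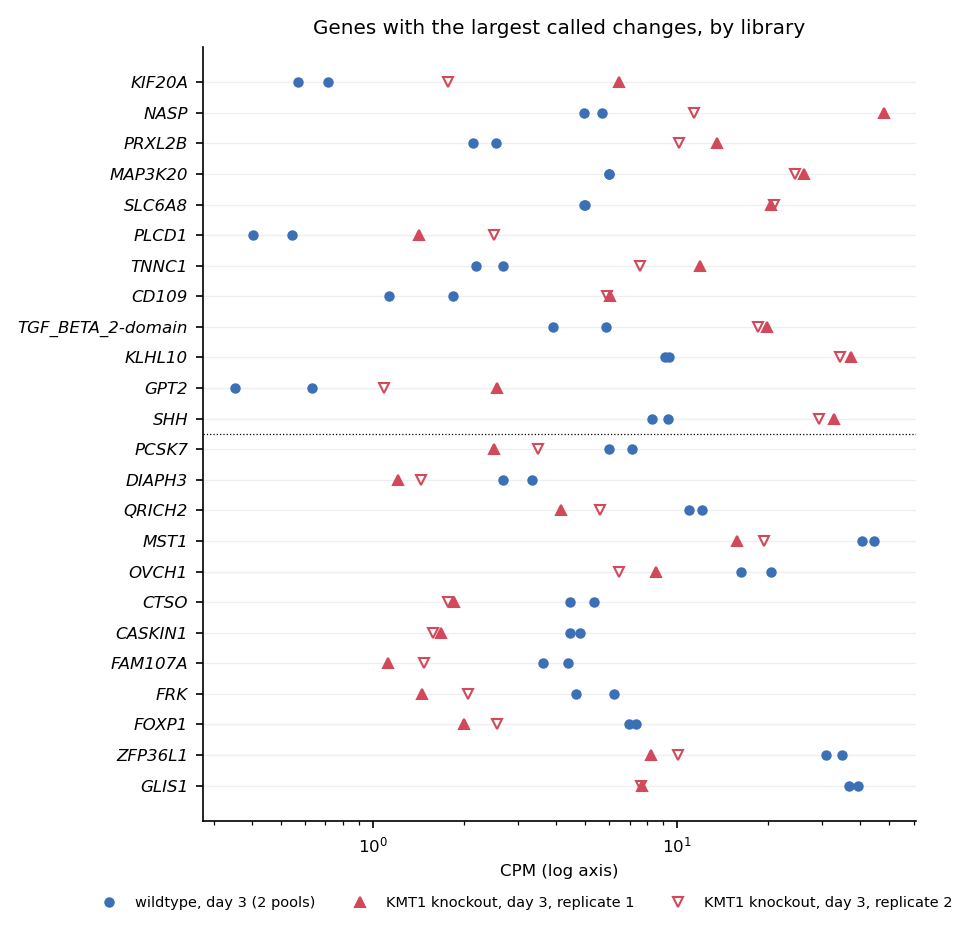
CPM on a log axis (x) for the 12 genes with the largest called rises (above the dotted line) and the 12 with the largest called falls (below it), with a point per library: blue circles for the 2 wildtype pools, filled and open red triangles for knockout replicates 1 and 2. The knockout points lie on 1 side of both wildtype points in each row because the genes were chosen that way. KIF20A and NASP show the widest gap between the 2 knockout pools.

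The largest fall among the named genes above 0 in all 4 libraries was that of GLIS1, a zinc finger transcription factor. It stood at 36.8 and 39.3 CPM in wildtype and at 7.71 and 7.6 CPM in the knockout pools (-2.31, SE 0.166, adjusted p = 0.000469), so that the 2 pools of each group were close together and the groups far apart. ZFP36L1, which binds AU-rich messenger RNAs and promotes their decay, stood in its copy on chromosome 29 at 30.9 and 35 CPM and 8.24 and 10.1 CPM (-1.85, SE 0.165, adjusted p = 0.00361). The serine protease gene OVCH1 stood at 16.3 and 20.5 CPM and 8.53 and 6.48 CPM (-1.29, SE 0.176, adjusted p = 0.00605). The calls of these 3 genes held without each library. GLIS1 and this copy of ZFP36L1 also fell in the KMT5A knockout of day 3 (log2 fold changes -2.23 and -2.24, against the same wildtype pools). OVCH1 stood there at 30.01 and 27.4 CPM, above both KMT1 knockout pools. For OVCH1 the test between the knockouts was passed (adjusted p = 0.00138).

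The other 9 of the 12 named falls were less stable to leaving out a library. FOXP1, a forkhead transcription factor, stood at 6.98 and 7.35 CPM and 2 and 2.56 CPM (-1.65, SE 0.315, adjusted p = 0.0226), and MST1, the secreted ligand of the receptor RON, at 44.3 and 40.6 CPM and 15.8 and 19.4 CPM (-1.27, SE 0.145, adjusted p = 0.0151). Both lie on chromosome 14, as does FAM107A, an actin-binding protein, at 3.63 and 4.38 CPM and 1.12 and 1.47 CPM (-1.62, SE 0.348, adjusted p = 0.0355). The remaining 6 genes were FRK, a tyrosine kinase related to SRC (-1.64, adjusted p = 0.0155), the scaffold protein CASKIN1 (-1.50, adjusted p = 0.033), the lysosomal protease CTSO (-1.44, adjusted p = 0.0376), QRICH2 (-1.24, adjusted p = 0.011), the formin DIAPH3 (-1.19, adjusted p = 0.0209) and the proprotein convertase PCSK7 (-1.13, adjusted p = 0.0302). Each of these 9 genes lost its call without 1 or more libraries. Without wildtype replicate 1 none of the 9 was called (adjusted p = 0.0533 to 0.146), without wildtype replicate 2 the adjusted p of FOXP1, FAM107A, CASKIN1, CTSO, MST1 and PCSK7 was 0.0553 to 0.153, without knockout replicate 1 that of FOXP1, FRK, FAM107A, CASKIN1, CTSO, DIAPH3 and PCSK7 was 0.0578 to 0.122, and without knockout replicate 2 that of FAM107A, CASKIN1 and CTSO was 0.0522 to 0.103.

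Among these 24 genes with the largest changes, ZFP36L1, FOXP1, FRK, FAM107A, CASKIN1, QRICH2, DIAPH3, SHH, GPT2, CD109, TNNC1, PLCD1, SLC6A8, MAP3K20 and KIF20A carry symbols shared with other gene models, and GLIS1 and KLHL10 overlap another model. Their values are uncertain where reads of copies or overlapping models were split, since the strand setting is not given. Genes named in later paragraphs that share their symbol with other gene models include PLK2, SMAD6, TGFBR1, PTCH1, JAG1, SFRP5, FGFR2, GATA2, FOXD3, MYCN, CLDN3 and RHOA. The values given for them are of 1 model each, not of all models of the symbol.

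Some of these 24 genes were listed at 0 at day 2, which may be failed estimates that enter the same fit. MST1, TNNC1 and the model named after a TGF-beta family domain were at 0 in every day 2 library. MAP3K20 and ZFP36L1 on chromosome 29 were at 0 in both day 2 wildtype pools. A further 96 calls had a day 3 group listed at 0 in both of its libraries, 63 in wildtype and 33 in the knockout. By the naming rule these include CPNE2 and TMCC1, listed at 0 in both knockout pools, and the lysosomal trafficking gene LYST, listed at 0 in both wildtype pools. CPNE2, a calcium-dependent membrane-binding protein, stood at 12.4 and 11.9 CPM in wildtype. INPP1, an inositol phosphatase that was also listed at 0 in the knockout, stood at 3.61 and 4.4 CPM in wildtype, and TMCC1 at 2.84 and 3.94 CPM. LYST stood at 4.33 and 5.31 CPM in the knockout pools and PPFIBP1, a liprin also listed at 0 in wildtype, at 8.3 and 6.82 CPM. A copy of the splicing factor SRSF3 on chromosome 52 was listed at 0 in wildtype and stood at 1737 and 1822 CPM in the knockout. At day 2 it stood at 695 and 58.7 CPM in the wildtype pools and at 537 and 47.3 CPM in the KMT1 knockout pools. Replicates of a group thus differed widely there. It was the gene called in the fit on the 4 compared libraries, and voom did not call it (adjusted p = 0.929). That copy shares its symbol with other gene models, and no fold change is given for genes listed at 0.

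Among 23 lists of genes grouped by function, the share of members called higher was largest for p53 and apoptosis genes, for sterol, fatty acid and eicosanoid genes and for DNA replication genes. The counts below are of members above 0 in all 4 libraries. They stand beside 5.64% called higher and 1.82% called lower over all 11806 such genes. Of these 11806 genes, 2777 had an unadjusted p under 0.05 in edgeR in either direction. DESeq2 called 2111 of them and voom 770. Rises and falls are relative to wildtype of day 3, and wildtype levels at day 2 are given further below for some members.

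**Figure D3:**
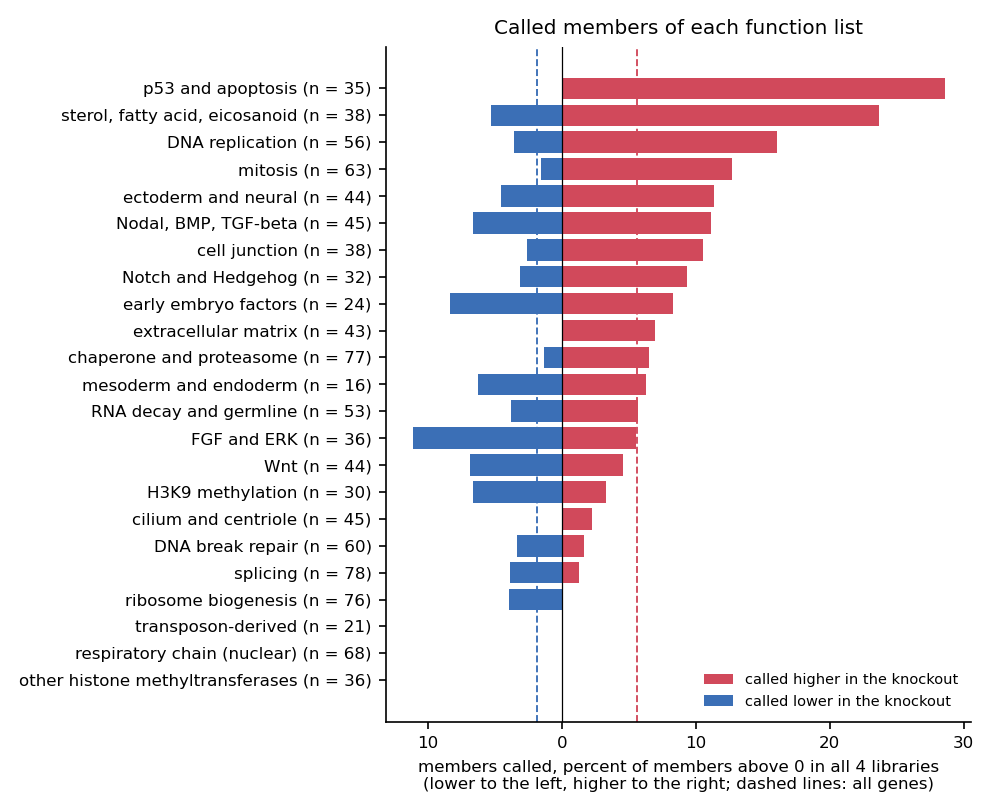
Percent of each list's members above 0 in all 4 libraries (number in brackets) that were called higher (red, to the right) or lower (blue, to the left) in the day 3 KMT1 knockout. Dashed lines mark the same shares over all 11806 genes, 5.64% and 1.82%; the longest red bar is that of the p53 and apoptosis list, 10 of 35 members.

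The p53 pathway stops the cell cycle or starts cell death after DNA damage and other stress, through APAF1 and the caspases. Of 35 such genes 10 (28.6%) rose, and the median log2 fold change of the list was 0.16. No fall was called by edgeR, voom or DESeq2, and 1 member was lower at an unadjusted p under 0.05 in edgeR. The initiator caspase CASP9 stood at 26.6 and 24.3 CPM in wildtype and 65 and 44.7 CPM in the knockout pools (1.11, SE 0.165, adjusted p = 0.00883), and APAF1, its activating scaffold, at 16.9 and 16.2 CPM and 26.6 and 25.6 CPM (0.66, SE 0.117, adjusted p = 0.0172). The growth arrest gene GADD45B stood, in its more abundant copy, at 1441 and 1441 CPM and 2016 and 2113 CPM (0.52, SE 0.0344, adjusted p = 0.000327). The kinase PLK2, a p53 target in mammals, stood at 119 and 116 CPM and 191 and 192 CPM (0.71, SE 0.0562, adjusted p = 0.000612). All knockout values of these 4 genes were above all wildtype values, and the calls of GADD45B and PLK2 held without each library. CASP9 was not called without wildtype replicate 2 (adjusted p = 0.0717). APAF1 was not called without wildtype replicate 1 (0.0631), wildtype replicate 2 (0.099) or knockout replicate 1 (0.0621). FDXR, a mitochondrial reductase and p53 target in human cells (0.96, SE 0.175, adjusted p = 0.0189), the DNA damage binding protein DDB2 (0.57, adjusted p = 0.0253), a second copy of GADD45B (0.54, adjusted p = 0.0467) and the p53 relative TP63 (0.19, adjusted p = 0.0378) rose as well. Voom called 6 of the 10. The count of rises was 6 without wildtype replicate 1, 3 without wildtype replicate 2 and 5 without knockout replicate 1.

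Replication genes load and fire origins, copy DNA and protect stalled forks. Of 56 such genes 9 (16.1%) rose and 2 fell, and the median log2 fold change was 0.07. The nuclease and helicase DNA2 stood at 65.2 and 66.1 CPM in wildtype and 132 and 131 CPM in the knockout pools (1.00, SE 0.109, adjusted p = 0.0024). GMNN, or geminin, which blocks repeated licensing of origins, stood at 765 and 769.9 CPM and 1244 and 1092 CPM (0.61, SE 0.0669, adjusted p = 0.00249). The fork protection partners TIMELESS and TIPIN rose by about the same factor: TIMELESS stood at 46.2 and 46.4 CPM and 81.9 and 64 CPM (0.66, SE 0.114, adjusted p = 0.016), and TIPIN at 23.5 and 28.8 CPM and 39.6 and 40.9 CPM (0.62, SE 0.0952, adjusted p = 0.00984). RPA1, RPA2, PCNA, RRM2 and MCM7, which bind single strands, clamp polymerases, make deoxynucleotides and unwind DNA, rose by 0.21 to 0.29 on the log2 scale. The clamp loader subunit RFC1 (-0.41, adjusted p = 0.017) and the helicase activator MCM10 (-0.31, adjusted p = 0.0161), which lies on chromosome 14, fell. All 9 rises were also called by voom. The count of rises was 4 without wildtype replicate 1, 3 without wildtype replicate 2 and 6 without knockout replicate 1, and the calls of DNA2, GMNN and TIPIN held without each library. TIMELESS was not called without wildtype replicate 1 (adjusted p = 0.0849) or replicate 2 (0.102).

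Of 63 genes of mitosis 8 (12.7%) rose and 1 fell, with a median log2 fold change of 0.04. The abundant copy of cyclin A, CCNA2 on chromosome 16, stood at 863 and 852 CPM and 982 and 969 CPM (0.19, SE 0.0438, adjusted p = 0.0488). The scarcer copy on chromosome 18 stood at 20.6 and 23.8 CPM in wildtype and at 108 and 40.3 CPM in the knockout pools (1.75, SE 0.374, adjusted p = 0.0355), so knockout replicate 1 was far above replicate 2. The kinase AURKA stood at 266 and 251 CPM and 369 and 322 CPM (0.42, SE 0.0801, adjusted p = 0.0229). KIF20A, described above, the spindle motor KIF11 (0.30, adjusted p = 0.00508), the spindle factor TPX2 (0.22, adjusted p = 0.0447), the kinetochore protein Cenpf (0.39, adjusted p = 0.0209) and CDCA8, a subunit of the chromosomal passenger complex (1.22, adjusted p = 0.0255), made up the other rises. The kinetochore motor CENPE fell (-0.27, adjusted p = 0.0125). The count of rises was 4 without wildtype replicate 1, 2 without wildtype replicate 2 and 3 without knockout replicate 1, and 4 of the 8 were called by voom. The call of KIF11 held without each library.

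Genes of sterol, fatty acid and eicosanoid metabolism make membrane lipids and the signalling lipids derived from arachidonic acid. Of 38 such genes 9 (23.7%) rose and 2 (5.26%) fell, with a median log2 fold change of 0.08. Beside PRXL2B, 2 copies of the lipoxygenase ALOX5, which makes leukotriene precursors, rose. The abundant copy stood at 133 and 136 CPM in wildtype and 219 and 206 CPM in the knockout pools (0.66, SE 0.0493, adjusted p = 0.000485), and the scarce copy at 1.49 and 2.01 CPM and 4.21 and 5.29 CPM (1.44, SE 0.182, adjusted p = 0.0044). ELOVL4, which lengthens very long fatty acids, stood at 45.5 and 54.5 CPM and 109 and 76.9 CPM (0.90, SE 0.15, adjusted p = 0.0139). DHCR7, an enzyme of the last steps of cholesterol synthesis, fell and stood at 73.1 and 66.1 CPM and 38.5 and 43.8 CPM (-0.76, SE 0.165, adjusted p = 0.0375). HPGD, which inactivates prostaglandins, fell from 19 and 18.1 CPM to 12 and 9.8 CPM (-0.77, SE 0.142, adjusted p = 0.0206). The desaturase FADS1 (0.61, adjusted p = 0.0215), the acyl-CoA ligase ACSL1 (0.28, adjusted p = 0.0151) and 2 copies of the citrate lyase ACLY (0.57, adjusted p = 0.0157 and 0.25, adjusted p = 0.0303) also rose. Voom called 5 of the 9 rises and both falls. The count of rises was 5 without wildtype replicate 1, and the count of falls was 0 without wildtype replicate 1, wildtype replicate 2 or knockout replicate 2 and 1 without knockout replicate 1. The calls of PRXL2B and both ALOX5 copies held without each library, and ELOVL4 was not called without wildtype replicate 1 (adjusted p = 0.0873).

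Signalling pathways that pattern the embryo held calls in both directions. In the Nodal, BMP and TGF-beta list 5 of 45 genes rose and 3 fell. The Nodal antagonist Lefty1 stood at 221 and 230.3 CPM in wildtype and 397 and 311 CPM in the knockout pools (0.65, SE 0.114, adjusted p = 0.0165). The ligand GDF3 (0.31, adjusted p = 0.0218), the Nodal co-receptor TDGF1 (0.16, adjusted p = 0.0329), the ligand TGFB2 (0.47, adjusted p = 0.046) and ID4, a BMP target that blocks bHLH factors (0.88, adjusted p = 0.0431), were the other rises. ID2, a relative of ID4, stood at 367 and 368 CPM and 225 and 262 CPM (-0.59, SE 0.0947, adjusted p = 0.0117). The inhibitory SMAD6 stood at 23.2 and 20.2 CPM and 9.82 and 13 CPM (-0.93, SE 0.168, adjusted p = 0.0189), and the receptor TGFBR1 fell too (-0.67, adjusted p = 0.0378). Without wildtype replicate 1 none of these 8 calls held (0 rises and 0 falls). Without wildtype replicate 2 there were 1 rise and 2 falls, and without knockout replicate 1 there were 2 rises and 1 fall.

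In the Notch and Hedgehog list 3 of 32 genes rose and 1 fell. Both Hedgehog ligands with a call rose: beside SHH, IHH stood at 2.69 and 3.07 CPM and 7.28 and 6.38 CPM (1.25, SE 0.267, adjusted p = 0.0354). PTCH1, the Hedgehog receptor and a target gene of the pathway, stood at 85.3 and 69.6 CPM and 50.5 and 58.4 CPM (-0.51, SE 0.116, adjusted p = 0.0452) and so fell. The Notch ligand JAG1 stood at 54.9 and 56.8 CPM and 81.3 and 72.5 CPM (0.46, SE 0.0706, adjusted p = 0.0099). The call of JAG1 was lost when either wildtype library was left out. Counts of rises in such refits can include list members not called in the fit on all 12 libraries. The count of rises was 2 without wildtype replicate 1, 0 without wildtype replicate 2 and 2 without knockout replicate 1. IHH lost its call without wildtype replicate 1 (adjusted p = 0.156), wildtype replicate 2 (0.121) or knockout replicate 1 (0.103), and PTCH1 without wildtype replicate 1 (0.229), knockout replicate 1 (0.192) or knockout replicate 2 (0.0635).

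In the Wnt list 2 of 44 genes rose and 3 fell. A copy of TCF7L2, a nuclear partner of beta-catenin, stood at 7.52 and 8.53 CPM and 29.1 and 17.6 CPM (1.54, SE 0.233, adjusted p = 0.00931), and the ligand WNT11 at 200.5 and 183 CPM and 281 and 259.9 CPM (0.50, SE 0.0799, adjusted p = 0.0121). The secreted Wnt antagonist SFRP2 stood at 335 and 312 CPM and 177 and 232 CPM (-0.66, SE 0.129, adjusted p = 0.0242). Its relative SFRP5 (-0.78, adjusted p = 0.027) and the zinc finger factor SP8 (-0.66, adjusted p = 0.0401) fell as well. In the FGF and ERK list 2 of 36 genes rose and 4 (11.1%) fell, with a median log2 fold change of -0.18. The receptor FGFR2, in 1 of 3 gene models of that symbol, stood at 91.8 and 80.3 CPM and 53.2 and 52 CPM (-0.71, SE 0.106, adjusted p = 0.0088). ETV1, an ETS factor downstream of FGF signalling, fell in both of its copies, from 372 and 352 CPM to 227 and 275 CPM (-0.53, SE 0.0769, adjusted p = 0.00784) and from 58.4 and 53.4 CPM to 38.8 and 41.7 CPM (-0.48, SE 0.0681, adjusted p = 0.0073). The kinase BRAF fell (-0.26, adjusted p = 0.0416), and the adaptor GRB2 (0.39, adjusted p = 0.0106) and the stress factor ATF3 (0.63, adjusted p = 0.0144) rose. The calls of both ETV1 copies held without each library, whereas the Wnt list had 0 falls without wildtype replicate 1, wildtype replicate 2 or knockout replicate 1. Its count of rises was 1, 0 and 1 in those refits and 4 without knockout replicate 2. The FGF and ERK list had 2 falls and 0 rises without wildtype replicate 1 and 3 falls and 0 rises without wildtype replicate 2.

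Regulators of ectoderm and neural tissue counted 5 rises and 2 falls among 44 genes. The median log2 fold change of the list was nevertheless -0.15, and 19 of the 44 values were above 0. DLX6, a homeobox gene of the neural plate border and later jaw, stood at 1.18 and 1.14 CPM and 4.07 and 3.07 CPM (1.62, SE 0.207, adjusted p = 0.00455), the zinc finger gene ZIC2 at 9.85 and 7.88 CPM and 15 and 13.3 CPM (0.67, SE 0.158, adjusted p = 0.0492). A scarce copy of keratin gene KRT8 (0.94, adjusted p = 0.0344), an abundant one (0.36, adjusted p = 0.0195) and TP63, counted above as well, rose. The epidermal factors GATA2, on chromosome 14, and GRHL2 fell: GATA2 stood at 51.8 and 50.9 CPM and 29.1 and 36.2 CPM (-0.65, SE 0.138, adjusted p = 0.034), and GRHL2 at 65.1 and 58.3 CPM and 38.6 and 47.2 CPM (-0.53, SE 0.102, adjusted p = 0.0245). The call of DLX6 held without each library. The list had 3 rises and 0 falls without wildtype replicate 1, 2 rises and 1 fall without wildtype replicate 2 and 3 rises and 0 falls without knockout replicate 1.

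Among early embryo transcription factors, 2 of 24 genes rose and 2 fell. FOXD3, a factor of pluripotent cells and neural crest, stood at 71.5 and 62.9 CPM and 28.8 and 44.2 CPM (-0.88, SE 0.187, adjusted p = 0.0345), and MYCN at 992 and 953 CPM and 822 and 838 CPM (-0.23, SE 0.0469, adjusted p = 0.0306). MAX, the dimer partner of MYC proteins, rose in 2 copies (0.31, adjusted p = 0.0173 and 0.45, adjusted p = 0.0173). Among 16 regulators of mesoderm and endoderm, OTX2 in the copy on chromosome 6 fell, from 29.4 and 29.8 CPM to 19.2 and 21 CPM (-0.56, SE 0.0997, adjusted p = 0.0172), and OSR1 rose, from 4.54 and 5.5 CPM to 8.43 and 9.51 CPM (0.84, SE 0.125, adjusted p = 0.0088). The falling OTX2 copy is a scarce one: the 3 OTX2 models together stood at 1713 and 1688 CPM in wildtype and 1690.3 and 1985 CPM in the knockout pools, and neither of the other 2 was called (adjusted p = 0.349 on chromosome 17 and 0.903 on chromosome 31). The call of OSR1 held without each library. FOXD3 and OTX2 were not called without wildtype replicate 1 (adjusted p = 0.145 and 0.0863), wildtype replicate 2 (0.0684 and 0.0766) or knockout replicate 1 (0.0517 and 0.0743), and MYCN was called in none of the 4 refits (0.0546 to 0.214).

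Marker sums of whole tissues gave the setting of these values. Markers of mesoderm and endoderm, of which 6 of 7 were found and 5 were above 0 in all 4 libraries, summed to 2532 and 2499 CPM in wildtype and 2489 and 2830 CPM in the knockout pools, with SOX17 at 0 in all 4. Ectoderm and neural markers, 4 of 6 found and 3 above 0 in all 4 libraries, summed to 1068 and 1071 CPM and to 1069 and 1029 CPM. Germ cell markers, 2 of 4 found, summed to 9.94 and 11.1 CPM and to 13.1 and 14.1 CPM. Muscle and blood markers, 2 of 5 found with ACTC1 at 0, summed to 9.71 and 8.82 CPM and to 10.2 and 11.4 CPM. The groups overlapped for the mesoderm and ectoderm sums, and both knockout pools were above both wildtype pools for the germ cell and muscle sums. The muscle and blood sum is that of MYH6 alone, and OTX2 makes up most of the mesoderm and endoderm sum. Single markers did not all follow their sum. GSC, a factor of the organizer, stood at 73.9 and 72.4 CPM in wildtype and 45.5 and 58.0 CPM in the knockout pools (log2 fold change -0.50, adjusted p = 0.15, not called). The 2 models of DLX3, a factor of the epidermis, together stood at 34.4 and 37.4 CPM and 24.5 and 27.7 CPM, and neither model was called (adjusted p = 0.054 and 1). The part of tissue make-up in the results above was not tested.

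Cell junctions hold cells together and the matrix surrounds them. Of 38 cell junction genes 4 (10.5%) rose and 1 (2.63%) fell. The tight junction gene CLDN3, the most abundant of them by CPM, stood at 2734 and 2768 CPM and 3445 and 3378 CPM (0.31, SE 0.0364, adjusted p = 0.00318), and the plakin PPL at 11 and 10.3 CPM and 16 and 18.2 CPM (0.68, SE 0.0845, adjusted p = 0.00398). A gene model named after the cadherin CDH2 (0.88, adjusted p = 0.0206) and 1 copy of the connexin GJC1 (0.20, adjusted p = 0.0232) rose while another GJC1 copy fell (-0.40, adjusted p = 0.0458). Of 43 matrix genes 3 (6.98%) rose, with 0 falls in edgeR (0 at an unadjusted p under 0.05), voom and DESeq2. The median log2 fold change of the matrix list was 0.23, the largest of the 23 lists. The rises were P4HA1, which hydroxylates collagen (1.12, SE 0.177, adjusted p = 0.0114), the laminin chain LAMC1 (0.66, SE 0.113, adjusted p = 0.0155) and the collagen COL18A1 (0.43, SE 0.083, adjusted p = 0.0232). The cilium list had 1 call in 45 genes, IFT57 of intraflagellar transport (0.57, SE 0.0711, adjusted p = 0.00421). The calls of CLDN3, PPL, P4HA1 and IFT57 held without each library. The junction list had 2 rises without wildtype replicate 2 and 0 falls without wildtype replicate 1, wildtype replicate 2 or knockout replicate 1, and the matrix list 1 rise without wildtype replicate 2.

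Genes of chromatin and repair come next. Of 30 genes that write, read or erase lysine 9 methylation of histone H3, 1 (3.33%) rose and 2 (6.67%) fell. The falls were SUV39H2 itself and a copy of the DNA methyltransferase DNMT3A, which stood at 374 and 377 CPM in wildtype and 282 and 298 CPM in the knockout pools (-0.37, SE 0.0393, adjusted p = 0.00196). DNMT3A had also been lower in the knockout at day 2 (log2 fold change -0.60, adjusted p = 0.000302), and its call at day 3 held without each library. A copy of CBX5, an HP1 protein, stood at 702 and 726 CPM and 822 and 841 CPM (0.22, SE 0.0431, adjusted p = 0.0245). CBX5 was not called without wildtype replicate 1 (adjusted p = 0.0734), wildtype replicate 2 (0.0718) or knockout replicate 1 (0.0502). Among 36 other histone methyltransferase genes 0 were called in edgeR, with 5 at an unadjusted p under 0.05, 1 in voom and 4 in DESeq2, and their median log2 fold change was -0.01. Among 21 genes derived from transposable elements 0 were called in edgeR, with 3 at an unadjusted p under 0.05, 0 in voom and 3 in DESeq2, with a median of 0.03. In the list of DNA break repair genes 1 of 60 rose, the ligase LIG4 of end joining (1.02, SE 0.228, adjusted p = 0.0414), and 2 fell, the mismatch repair gene PMS2 (-0.40, SE 0.0691, adjusted p = 0.0155) and the end joining nuclease DCLRE1C (-0.57, SE 0.111, adjusted p = 0.0247), the neighbour of SUV39H2. No repair call held without wildtype replicate 2 or knockout replicate 1. Without the former, PMS2 had an adjusted p of 0.0669, LIG4 0.214 and DCLRE1C 0.0824, and without the latter 0.0662, 0.129 and 0.0699.

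The remaining lists are of RNA and protein handling and respiration. Of 53 genes of messenger RNA decay and germline RNA binding 3 (5.66%) rose and 2 (3.77%) fell. The falls were 2 copies of ZFP36L1, the second of which stood at 36.3 and 34.7 CPM and 21.8 and 23.2 CPM (-0.66, SE 0.0907, adjusted p = 0.00615). The rises were TOB1, which recruits the deadenylase complex, at 140.2 and 138 CPM and 178 and 183 CPM (0.38, SE 0.0414, adjusted p = 0.0024), the exonuclease XRN1 (0.35, adjusted p = 0.0189) and CPEB1, a regulator of poly(A) tail length (1.13, SE 0.203, adjusted p = 0.0179). In the splicing list 1 of 78 rose, the epithelial regulator ESRP1 (0.92, adjusted p = 0.0293), and 3 fell: the kinase SRPK2, on chromosome 14 (-0.61, SE 0.06, adjusted p = 0.00159), SRSF5 (-0.36, adjusted p = 0.018) and SF3B1 (-0.18, adjusted p = 0.0402). Of 76 ribosome assembly genes 0 rose in edgeR (1 at an unadjusted p under 0.05) and voom and 1 in DESeq2, and 3 fell in edgeR (UTP20, -0.29, adjusted p = 0.0106; WDR3, on chromosome 14, -0.23, adjusted p = 0.0118; DDX51, -0.37, adjusted p = 0.0469). Of 77 chaperone and proteasome genes 5 rose, led by a copy of HSPA8 (0.96, SE 0.131, adjusted p = 0.00597) and the stress sensor ERN1 (0.85, adjusted p = 0.0353) with PSMD2, PDIA4 and CALR, and ATF4 fell (-0.24, adjusted p = 0.00784). Of 68 nuclear respiratory chain genes 0 were called in edgeR, with 7 at an unadjusted p under 0.05, 0 in voom and 3 in DESeq2. The calls of both ZFP36L1 copies, TOB1, SRPK2 and HSPA8 held without each library. The chaperone list had 2 rises without wildtype replicate 1, 1 without wildtype replicate 2 and 1 without knockout replicate 1. The ribosome list had 0 falls without wildtype replicate 1, 2 without wildtype replicate 2 and 1 without either knockout library, and the splicing list had 1 fall without either wildtype library and 2 without knockout replicate 2.

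The day 3 calls were mostly other genes than those called in the same knockout at day 2, a comparison that shares no library with day 3. Over the 11353 genes above 0 in all 8 libraries, 874 were called at day 3 and 1503 (13.2%) at day 2, and 146 were called at both. These are 16.7% of the day 3 calls and 9.71% of the day 2 calls. Of the 146, 43 were higher and 37 lower at both days, 36 were higher at day 3 and lower at day 2, and 30 were the reverse. Of the 874 day 3 calls 525 passed the test of a different knockout effect at the 2 days, against 13.1% of the 11353 genes. That test includes the day 3 values by which the 874 were called. KLHL10 is an example: its log2 fold change was -0.48 at day 2 and 1.95 at day 3 (adjusted p of the difference = 0.001). GLIS1 had -0.13 at day 2 and -2.31 at day 3 (0.00211), and SMAD6 had 0.71 and -0.93 (0.00589). In contrast GATA2 fell at both days (-0.69 and -0.65). DNMT3A also fell at both days, but less at day 3 (-0.60 at day 2 and -0.37 at day 3, adjusted p of the difference = 0.0432). Wildtype levels also changed between the days. FDXR stood there at 508 and 475 CPM at day 2 and 17.1 and 17.8 CPM at day 3. ELOVL4 went from 813 and 814 CPM to 45.5 and 54.5 CPM, and SFRP2 from 58.5 and 59.8 CPM to 335 and 312 CPM. These genes moved less far from their day 2 level in the knockout. DNA2, at 28.3 and 28.9 CPM and then 65.2 and 66.1 CPM in wildtype, moved farther. The part of developmental timing in the calls was not tested.

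Genes of chromosome 14, which carries SUV39H2, are described apart from the rest. The table holds 215 of its genes, of which 170 were tested and 118 were above 0 in all 4 libraries. Of these 118, 32 (27.1%) fell and 8 (6.78%) rose, against 1.57% and 5.63% of the 11688 genes elsewhere. Their median log2 fold change was -0.28, or 82.1% of the wildtype level. Among 78 chromosomes and scaffolds with at least 20 such genes this was the lowest median. Chromosome 80 came next with -0.17 over 25 genes, then chromosome 39 with -0.08, and the other 75, the mitochondrial genome among them, lay between -0.07 and 0.12. The count of falls on chromosome 14 was 15 without wildtype replicate 1, 15 without wildtype replicate 2, 21 without knockout replicate 1 and 28 without knockout replicate 2. Without wildtype replicate 1 the median was -0.19. In edgeR fits on the 4 or on the 6 day 3 libraries alone 0 falls were called there, with 46 and 44 at an unadjusted p under 0.05. Over all chromosomes these fits had 1139 such falls among 13214 genes tested and 891 among 13496.

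The lower expression was not even along the chromosome but lay mainly on the side of SUV39H2 towards the chromosome end. There 65 genes had a median log2 fold change of -0.45 (interquartile range -0.65 to -0.13), or 73.0% of the wildtype level. On that side 55 of the 65 values were below 0, 25 genes (38.5%) fell and 2 rose. On the side towards the chromosome start 52 genes had a median of -0.11, or 92.8% of wildtype, and 6 fell and 6 rose. The knockout pools lay below both wildtype pools for 48 (73.8%) of the end side genes, 20 (38.5%) of the start side genes and 26.9% of genes on other chromosomes. Voom called 22 of the 25 end side falls. The count of end side falls was 13 without wildtype replicate 1, 13 without wildtype replicate 2, 16 without knockout replicate 1 and 22 without knockout replicate 2, and the median there ranged from -0.49 to -0.40 over these refits. The start side median ranged from -0.13 to -0.01.

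**Figure D4:**
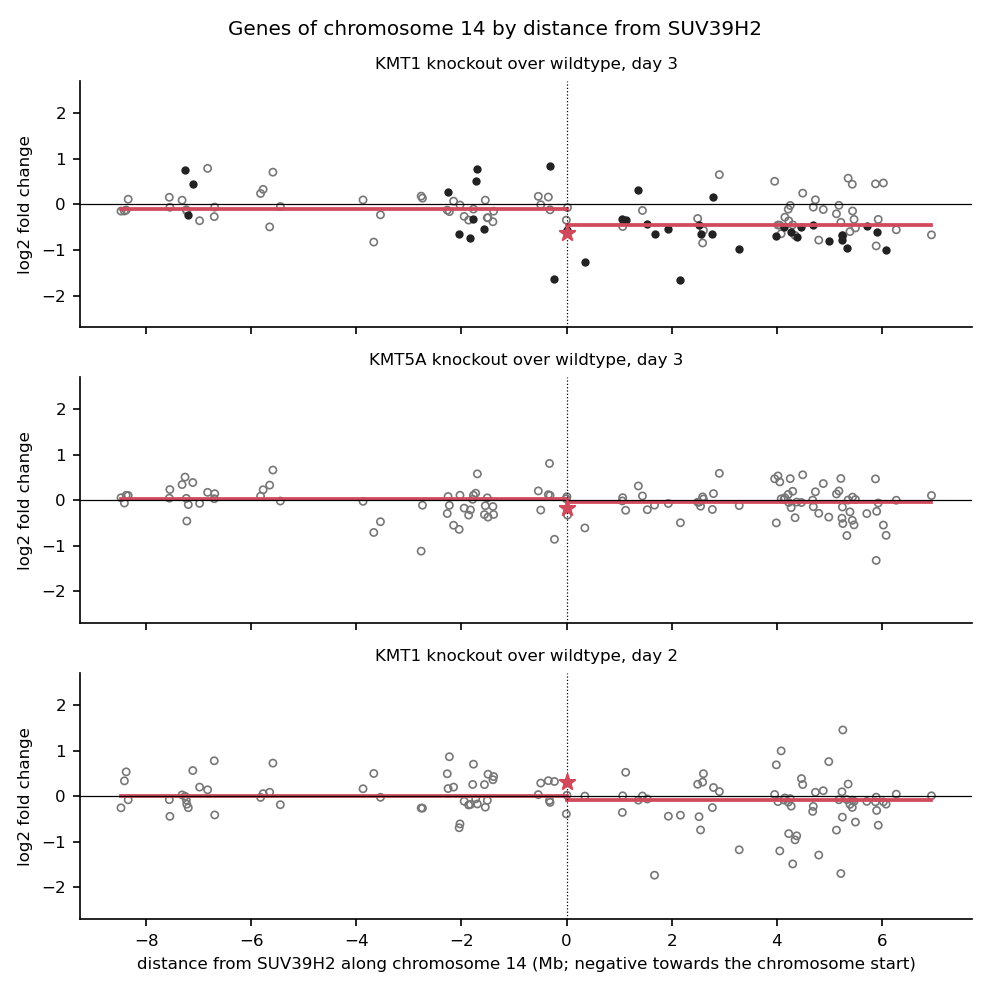
Log2 fold change (y axis) of the 118 genes of chromosome 14 above 0 in all 4 libraries of the KMT1 comparison, by distance from SUV39H2 in Mb (x axis, negative towards the chromosome start), for the day 3 KMT1 knockout (top), the day 3 KMT5A knockout (middle) and the day 2 KMT1 knockout (bottom), each against the wildtype of its day. The star is SUV39H2, red lines are the medians of each side, and filled points in the top panel are called genes (calls are not marked in the lower panels); the median to the right of SUV39H2 is -0.45 in the top, -0.04 in the middle and -0.09 in the bottom panel.

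The end side medians were low at every distance. In steps of 2 Mb away from SUV39H2 the median log2 fold changes were -0.44 (11 genes), -0.61 (12 genes), -0.45 (38 genes) and -0.61 (4 genes), up to the last gene at 6.94 Mb. On the start side the first 2 Mb had a median of -0.20 over 20 genes, and the following steps had -0.01 (11 genes), 0.24 (5 genes), -0.06 (12 genes) and -0.13 (4 genes). Of these steps only the 20 genes nearest on the start side and the 38 genes from 4 to 6 Mb on the end side reach 20 genes.

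The called end side genes were of many functions. Nearest to SUV39H2 lies DCLRE1C, from 8639873 to 8654500 on the minus strand, which stood at 19.1 and 24.1 CPM in wildtype and 14.4 and 14.8 CPM in the knockout pools (-0.57, SE 0.111, adjusted p = 0.0247). MST1, the GTPase RHOA and the ubiquitin protease USP15 follow. RHOA stood at 351 and 368 CPM and 287 and 294 CPM (-0.31, SE 0.059, adjusted p = 0.0226), and USP15 at 116 and 124 CPM and 101 and 86.8 CPM (-0.35, SE 0.0678, adjusted p = 0.0242). The phosphatase PTPN12, the next called gene, rose from 107 and 109 CPM to 136 and 131 CPM (0.31, SE 0.0345, adjusted p = 0.00249), and its call held without each library. EXOC4, a subunit of the exocyst that tethers secretory vesicles, was the called gene farthest out, from 14714730 to 14827179 on the minus strand. It stood at 52.4 and 56.3 CPM and 26.1 and 28.4 CPM (-0.996, SE 0.127, adjusted p = 0.00456) and its call held without each library, as did that of SRPK2. VGLL4, a cofactor of TEAD factors, stood at 56.7 and 39.5 CPM and 21.7 and 27.2 CPM (-0.98, SE 0.181, adjusted p = 0.0206). In order of distance the other end side falls included TMPO, a second SLC6A8 gene, HBP1, FOXP1, GPR85, BMT2, RBM15, SLC38A2, MSRB3, LEMD3, NOPCHAP1, NFYB, POC1A, ATP23, GPKOW, TUBGCP6 and MKLN1, with log2 fold changes from -1.65 to -0.44, and MAPKAPK2 was the other rise (0.17). RHOA was called in none of the 4 refits (adjusted p = 0.0587 to 0.109). Without wildtype replicate 2 the adjusted p was 0.0824 for DCLRE1C, 0.0553 for MST1 and 0.188 for USP15, and without wildtype replicate 1 it was 0.0685 for VGLL4, 0.073 for MST1 and 0.126 for USP15. Without knockout replicate 1 it was 0.0699 for DCLRE1C and 0.0952 for VGLL4.

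On the start side the 5 called genes nearest to SUV39H2 were FAM107A, the actin regulator WASL, the semaphorin receptor PLXNB1 and the stress kinases MAPK12 and MAPK14, which adjoin each other. WASL stood at 6.12 and 4.38 CPM in wildtype and 9.22 and 9.53 CPM in the knockout pools (0.83, SE 0.149, adjusted p = 0.0174), MAPK12 at 21 and 25.3 CPM and 41.5 and 37.4 CPM (0.77, SE 0.115, adjusted p = 0.00866), and MAPK14 at 9.3 and 10.2 CPM and 13.6 and 14.4 CPM (0.52, SE 0.0893, adjusted p = 0.0156). These 3 rose, whereas PLXNB1 fell from 25.8 and 29.6 CPM to 19 and 19.2 CPM (-0.54, SE 0.117, adjusted p = 0.0377). The call of MAPK12 held without each library, PLXNB1 and FAM107A were called in none of the 4 refits, WASL was not called without knockout replicate 1 (adjusted p = 0.0605) and MAPK14 not without wildtype replicate 1 (0.063).

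Each knockout pool showed the difference between the sides by itself. Over genes above 0 in all 12 libraries (59 on the end side, 50 on the start side, 10825 elsewhere), the end side median of log2 CPM relative to the wildtype mean was -0.49 in replicate 1 and -0.43 in replicate 2. The start side had -0.09 in both, and the other chromosomes -0.01 to 0.00. The end side minus the start side was -0.40 and -0.34 in the knockout pools and within 0.01 of 0 in the wildtype pools. The wildtype pools are their own reference here, so their values mirror each other around 0 and show only the spread between them. An exact two-sided permutation test of this difference gave p = 0.333. That is the smallest p that 2 against 2 pools allow, so the test could not decide. In the KMT5A knockout of day 3, measured against the same wildtype pools, the end side minus the start side was -0.09 and -0.04. In the KMT1 knockout of day 2, against its own wildtype, it was -0.17 and -0.10, and in the KMT5A knockout of day 2 it was -0.08 and -0.11. At day 2 the KMT1 knockout had 13 called falls among the 65 end side genes and 6 among the 52 start side genes, against 8.91% of genes elsewhere and 6.79% of all genes tested. The KMT5A knockout of day 3 had 3 and 2, against 2.4% elsewhere and 1.97% of all genes tested. In that knockout chromosome 21 had the lowest median log2 fold change, -0.57 over 187 genes. In the KMT1 knockout of day 3 the median of chromosome 21 was 0.005. The median of chromosome 14 in the KMT5A knockout of day 3 was -0.015. Low chromosome medians thus occurred in both knockouts of day 3, but on different chromosomes.

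**Figure D5:**
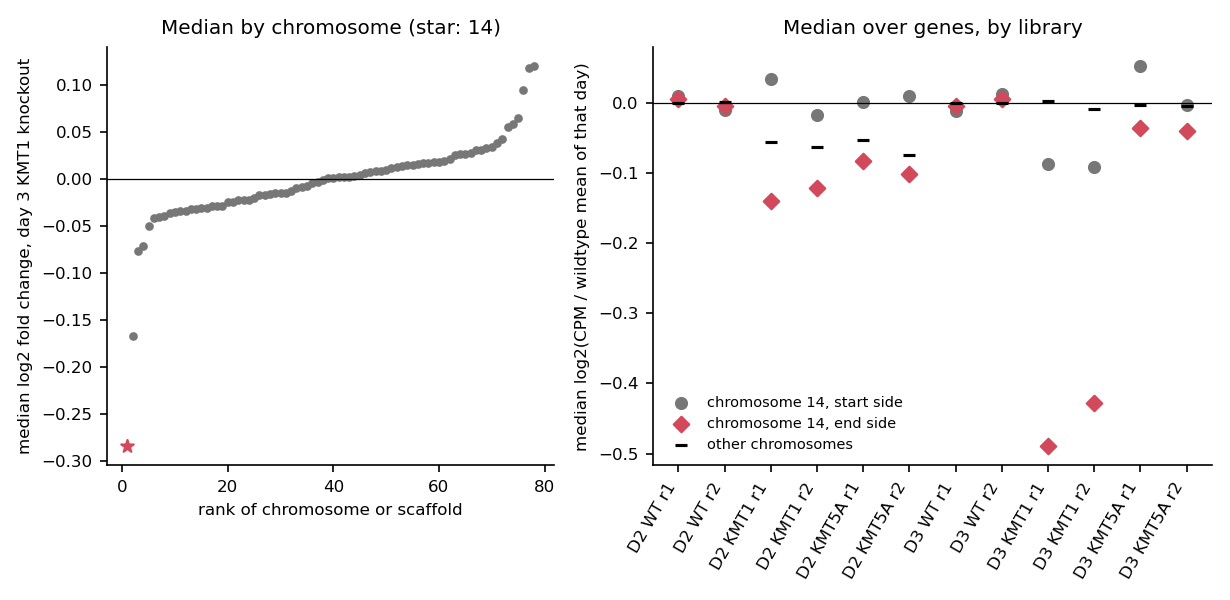
Left: median log2 fold change of the day 3 KMT1 knockout (y axis) for 78 chromosomes and scaffolds with at least 20 genes, ranked (x axis), with chromosome 14 as a star at -0.28. Right: median log2 CPM relative to the wildtype mean of the same day (y axis) in each of the 12 libraries (x axis; D2 and D3 are day 2 and day 3, WT is wildtype) for the genes of chromosome 14 on the start side (grey circles) and end side (red diamonds) of SUV39H2 and for other chromosomes (black bars). The red diamonds of the 2 day 3 KMT1 libraries, -0.49 and -0.43, lie below those of the other 10 libraries.

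The 2 knockouts of day 3 were also compared gene by gene. Most genes that the naming rule chose off chromosome 14, above 0 in all 4 libraries, changed in the same direction in the KMT5A knockout. Both knockouts were measured against the same wildtype pools. In the KMT5A knockout log2 fold changes were 1.81 for SHH, 2.17 for MAP3K20, 1.72 for CASP9, 1.31 for DNA2, 0.52 for GMNN and 0.31 for CLDN3. Such changes are not particular to the KMT1 knockout. Some named genes changed less there, such as TCF7L2 (0.45), and a few the other way, such as OVCH1 (0.65) and PCSK7 (0.11). Between the KMT5A and the KMT1 knockout of day 3, 13 of the 65 end side genes were called higher in the KMT5A knockout, 1 (1.92%) of the 52 start side genes and 27 (0.231%) of the 11688 genes elsewhere (0.371% of all genes tested). They include DCLRE1C (adjusted p = 0.0346) and SRPK2 (0.0265). For SUV39H2 itself this difference was not called (adjusted p = 0.058). Between days, the knockout effect was called more negative at day 3 than at day 2 for 11 of the 65 end side and 10 of the 52 start side genes. Elsewhere this held for 3.42% of genes (2.91% of all genes tested). It was called more positive for 2 end side and 6 start side genes and for 1073 of the 11688 genes elsewhere. In the share of more negative calls the end side did not stand out from the start side.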

How the data were processed

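The authors deposited estimated counts, unscaled whole numbers for each gene in each library, which the labels call raw counts. They were read as estimates because StringTie is named and few values of 1 to 3 occur (8 to 26 genes per day 3 library of the compared groups). Rounding had no effect on whole numbers. HISAT2 2.2.1, StringTie 2.2.3 and DESeq2 1.42.1 are named per the submitters' processing notes. How strand and reads with several matches were handled, and on which genome build, is not given in the sources used here, so gene models that overlap, and copies that share a symbol, are uncertain to that extent. Other values used, the start, end, strand and name of gene models, come from the deposited annotation, per the file headers. All 22407 genes of the table were found there, and 14757 carried a symbol. These symbols were read as given by match to known proteins, and some are labels of a protein domain. No sequence is shown.

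The 4 compared libraries were read by their titles, and the replicate numbers were not used as pairs. Counts were fitted in R 4.3.3 with edgeR 4.0.16: TMM factors, the default filter on low counts, 1 model of 6 groups over 12 libraries, the quasi-likelihood F test and Benjamini-Hochberg adjustment over 15615 genes. The model had 6 residual and 1.69 prior degrees of freedom. A gene was called at an adjusted p under 0.05. SE were derived from F. The script was tested on simulated data. Alternatives used limma 3.58.1 (voom) and DESeq2 1.42.0, other scalings and filters, fewer libraries, a replicate block, a ribosomal RNA term, and each library left out. In the last the lone library of a group is assumed to vary like the others. Figures used matplotlib 3.10.9, and the permutation test scipy 1.17.1.

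Named genes were SUV39H2, the 12 largest rises and falls among called genes above 0 in all 4 libraries with a symbol and at least 50 counts on average in whichever group was higher, up to 4 called members per list by size, 5 called genes nearest to SUV39H2 on each side and the 5 largest on its chromosome, and 3 genes listed at 0 in each direction. Remaining called members of a list are named as well, after their values were seen, and a few members counted in the totals are not reported here by name. The 12 largest rises and falls also had to have 2 groups without overlap in CPM. Members, lists and rules were chosen with earlier results of these data known. The precision of each value is limited by 2 pools per group.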

Additional observations from a re-analysis of the deposited data

Results flagged for a closer look

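For the named genes below, the KMT1 knockout effect at day 3 differed from that at day 2 in a test of the difference itself (edgeR, adjusted over all genes). Each gene is followed by its log2 fold changes at both days and the adjusted p of the difference.

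Genes that rose at day 3 and had a negative value at day 2 include KLHL10 (1.95 at day 3 and -0.48 at day 2, 0.00100), PTPN12 (0.31 at day 3 and -0.09 at day 2, 0.00353), CLDN3 (0.31 at day 3 and -0.10 at day 2, 0.00392) and GMNN (0.61 at day 3 and -0.12 at day 2, 0.00424). In the same group were IFT57 (0.57 at day 3 and -0.16 at day 2, 0.00511), DLX6 (1.62 at day 3 and -0.45 at day 2, 0.00513), OSR1 (0.84 at day 3 and -0.29 at day 2, 0.0075) and CBX5 (0.22 at day 3 and -0.17 at day 2, 0.00768). The group also held MAX (0.31 at day 3 and -0.19 at day 2, 0.00794), MAPK12 (0.77 at day 3 and -0.17 at day 2, 0.0105), P4HA1 (1.12 at day 3 and -0.23 at day 2, 0.0135) and AURKA (0.42 at day 3 and -0.15 at day 2, 0.0193). It further held COL18A1 (0.43 at day 3 and -0.15 at day 2, 0.0196), TIPIN (0.62 at day 3 and -0.04 at day 2, 0.0203), Lefty1 (0.65 at day 3 and -0.13 at day 2, 0.0221) and MAPK14 (0.52 at day 3 and -0.06 at day 2, 0.0263). To these are added WASL (0.83 at day 3 and -0.10 at day 2, 0.0288), TIMELESS (0.66 at day 3 and -0.06 at day 2, 0.0297), FDXR (0.96 at day 3 and -0.09 at day 2, 0.0324) and CDH2 (0.88 at day 3 and -0.03 at day 2, 0.045). A further one was ERN1 (0.85 at day 3 and -0.13 at day 2, 0.0497).

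Genes that rose at day 3 with a smaller positive value at day 2 include PLK2 (0.71 at day 3 and 0.03 at day 2, 0.00328), PRXL2B (2.34 at day 3 and 0.41 at day 2, 0.00328), SLC6A8 (2.05 at day 3 and 0.63 at day 2, 0.00511) and ALOX5 (1.44 at day 3 and 0.03 at day 2, 0.012). In the same group were DNA2 (1.00 at day 3 and 0.18 at day 2, 0.015), PLCD1 (2.05 at day 3 and 0.20 at day 2, 0.0287), ELOVL4 (0.90 at day 3 and 0.02 at day 2, 0.0375) and CD109 (2.00 at day 3 and 0.67 at day 2, 0.0384). A further one was CPEB1 (1.13 at day 3 and 0.03 at day 2, 0.0471).

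Genes that fell at day 3 with a positive value at day 2 include ZFP36L1 (-0.66 at day 3 and 0.55 at day 2, 0.00232), USP15 (-0.35 at day 3 and 0.52 at day 2, 0.00266), SUV39H2 (-0.63 at day 3 and 0.31 at day 2, 0.00436) and SMAD6 (-0.93 at day 3 and 0.71 at day 2, 0.00589). In the same group were DIAPH3 (-1.19 at day 3 and 0.38 at day 2, 0.0187), TGFBR1 (-0.67 at day 3 and 0.36 at day 2, 0.0192), PMS2 (-0.40 at day 3 and 0.07 at day 2, 0.0216) and PLXNB1 (-0.54 at day 3 and 0.25 at day 2, 0.0229). The group also held QRICH2 (-1.24 at day 3 and 0.06 at day 2, 0.0231), SFRP5 (-0.78 at day 3 and 0.12 at day 2, 0.0408), FAM107A (-1.62 at day 3 and 0.32 at day 2, 0.0442) and PCSK7 (-1.13 at day 3 and 0.16 at day 2, 0.0457).

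Genes that fell at day 3 and were also negative at day 2 include GLIS1 (-2.31 at day 3 and -0.13 at day 2, 0.00211), OVCH1 (-1.29 at day 3 and -0.08 at day 2, 0.0196), EXOC4 (-0.996 at day 3 and -0.18 at day 2, 0.0267) and ETV1 (-0.48 at day 3 and -0.07 at day 2, 0.0346). A further one was DNMT3A (-0.37 at day 3 and -0.60 at day 2, 0.0432).

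Most named genes off chromosome 14 changed in the same direction in both knockouts of day 3, such as GLIS1 (KMT1 -2.31, KMT5A -2.23) and PRXL2B (KMT1 2.34, KMT5A 2.66). The KMT1 and KMT5A knockouts of day 3 differed from each other for a few other named genes. Each is given with its log2 fold changes against the shared wildtype and the adjusted p of the difference. These were OVCH1 (KMT1 -1.29, KMT5A 0.65, 0.00138), SRPK2 (KMT1 -0.61, KMT5A -0.24, 0.0265) and DCLRE1C (KMT1 -0.57, KMT5A 0.08, 0.0346). Next to them were TOB1 (KMT1 0.38, KMT5A 0.86, 0.00104), ATF3 (KMT1 0.63, KMT5A 1.69, 0.00214) and PLK2 (KMT1 0.71, KMT5A 1.06, 0.0243). ZFP36L1, ETV1 and MAX above are the copies on chromosomes 31, 2 and 33, ALOX5 is the copy on chromosome 22 and SLC6A8 that on chromosome 42.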

How the results depend on the processing

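Direction under the alternatives was checked for the 100 genes chosen by the naming rule and above 0 in all 4 libraries. None of them, and no chromosome 14 median, changed direction under an alternative. All 100 were called genes, and called genes had groups without overlap. A reversal in these genes was therefore unlikely from the outset, so the check says little about them. Genes listed at 0 and list members named after their values were seen were not part of this check. The median of all genes above 0 in all 4 libraries, -0.0036 here, lay between -0.0702 (library size) and 0.0438 (without knockout replicate 2). Scaling by library size alone gave 252 calls (182 higher, 70 lower; 164 above 0 in all 4 libraries), 14 falls on chromosome 14 and 12 on its end side, with medians of -0.344 for the chromosome, -0.531 for the end side and -0.175 for the start side. DESeq2 called 2695 genes (1815 higher, 880 lower; 2111 above 0 in all 4). The edgeR fit on the 4 compared libraries called 1 gene, higher, 0 lower (1139 at an unadjusted p under 0.05) and 0 above 0 in all 4, and that on the 6 day 3 libraries 19 (16 higher, 3 lower; 12 above 0 in all 4). Both gave 0 falls on chromosome 14 and its end side, and SUV39H2 had -0.634 and -0.636 without a call (adjusted p = 0.127 and 0.139). These fits had fewer samples to estimate spread and left out the day 2 libraries, whose replicates differed less. The cause of the smaller counts was not tested. The ribosomal RNA term gave 396 falls. TMM without the 2 ribosomal RNA-rich genes gave a start side median of -0.0890. Leaving out each library gave 564 to 1536 calls, 400 to 1258 higher, 96 to 377 lower, 362 to 1221 above 0 in all 4, 15 to 28 falls on chromosome 14 and 13 to 22 on its end side, and medians of -0.289 to -0.191, -0.493 to -0.403 and -0.131 to -0.0120 for the chromosome, the end side and the start side. The cause was not tested for the other moves either. Without knockout replicate 1 60.2% of calls were higher, against 74.6%. SUV39H2 ranged from -0.676 to -0.553 with a library left out and from -0.726 (ribosomal RNA term) to -0.613 (TMM without the 2 genes) under the other alternatives. Replicate numbers share only a number (correlation of deviations -0.0278), and a fit with the replicate block called 969 genes, of which 683 are shared with the 977. Of 100 named genes above 0 in all 4 libraries, 77 were also called by voom, 68 with the block, 29 by library size alone and 40 to 85 with a library left out. With 2 pools per group, a gene without a call may still differ.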
